A study of Mus musculus with 3 samples.

Results

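The clustered histone genes of the mouse were taken as all gene symbols of the count matrices that start with *Hist1h*, *Hist2h*, *Hist3h* or *Hist4h*. There were 67 such genes among 32287 features, 54 of them in the *Hist1*, 10 in the *Hist2*, 2 in the *Hist3* and 1 in the *Hist4* cluster. A gene was kept when it held at least 10 UMIs (unique molecular identifiers, the counted RNA molecules) over all cells of the joint counts table, which left 63 genes, namely 6 of H1, 16 of H2A, 16 of H2B, 12 of H3 and 13 of H4. The 4 genes under the limit were *Hist2h2aa2* with 4 UMIs, *Hist1h2bq* with 2, and *Hist1h2ba* and *Hist1h2aa* with 0. Just above it lay *Hist1h1t* with 23 UMIs, and *Hist1h2ao* and *Hist1h2ah* with 35 each.

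The cells were tdTomato+ cells sorted from the retinas of Glast-CreERT2; R26-CAG-LSL-Tdt mice, in which the *Glast* promoter drives the Cre that switches on tdTomato in Müller glia (MG). All mice received tamoxifen at 75 mg/kg daily for 5 days from postnatal day 20 (P20) by the sample labels, while the study's methods give a lower dose and a later start. They received an intravitreal AAV7m8 injection at P28, and their retinas were taken at P51. The control mice received only AAV7m8-GFAP-GFP-LacZsh. The CCA (cell cycle activator) mice received AAV7m8-GFAP-cyclinD1-p27sh mixed 9 to 1 with that same GFP virus, and the CCANT mice received the CCA mixture, then NMDA at P35 and trichostatin A (TSA), a histone deacetylase inhibitor, at P37. Each group is 1 droplet library made from 2 to 4 pooled retinas, so there is no replicate and no test between groups was made. Nearly all control cells carried Y-linked transcripts and nearly all CCA cells *Xist*, while the CCANT library held both, so the sex of the mice cannot be told apart from the CCA treatment.

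Histones package DNA. H2A, H2B, H3 and H4 form the core of the nucleosome, and H1 binds the linker DNA between nucleosomes. The genes of the clusters are mostly copied in S phase, when new chromatin is assembled, and their messages are known for ending in a conserved stem-loop rather than a poly(A) tail. Stem-loop binding protein (*Slbp*) holds that end, and the message is degraded when replication ends. Some clustered genes also give longer, polyadenylated transcripts, mainly in cells that have left the cell cycle. Droplet libraries of this kind are primed on poly(A), so a level below is a level of primed molecules and not of all histone message. Reads are counted per gene without correction for length, so each gene was compared with itself between cells and libraries.

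All 67 genes were found by identifier in the GENCODE vM21 annotation of GRCm38 (mm10), and 62 of them had a single exon. The histone stem-loop was searched on the transcript strand as GG, 3 bases, TTNTNA, 3 bases that pair with the first ones, and CC, and 45 of the 63 kept genes held it after the stop codon. For 11 of the others the annotation leaves no bases after the stop codon to search. The transcripts of *Hist1h1a* and *Hist2h3b* end within such letters. Searched in the last 60 bases alone, it was found in 17 of the 67 genes, and in 18 (0.0127%) of all 141767 transcripts of the annotation, 17 of which are transcripts of these genes. The 30-base windows below show genes that the results turn on, 5′ to 3′, with the stem-loop in capitals. *Hist1h2ap* ends right after it at chr13:21833026-21833055, while the *Hist1h3c* transcript (window at chr13:23745041-23745070) and those of *Hist1h2ae* (chr13:23570662-23570691), *Hist1h4d* (chr13:23581942-23581971, on the plus strand) and *Hist3h2ba* (chr11:58949341-58949370, on the plus strand) run on past it. All windows lie in the 3′ UTR, and *Hist1h2ap*, *Hist1h3c* and *Hist1h2ae* are on the minus strand.
Hist1h2ap: aaaaaaaaaaaGGCTCTTTTCAGAGCCatc
Hist1h2ae: aaaacaaaGGCTCTTTTCAGAGCCattcac
Hist1h3c: taaaaaaaGGCTCTTTTAAGAGCCacctaa
Hist1h4d: aaaccaaaGGCCCTTTTCAGGGCCactacc
Hist3h2ba: aacccaaaGGCTCTTTTCAGAGCCaccttc
The letters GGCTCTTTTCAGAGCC were the commonest form, in 26 genes. The *Hist1h2ap* window begins within a run of 12 A that lies directly before the stem-loop. The ends of the annotated transcripts of *Hist1h1c* (chr13:23740338-23740367) and *Hist3h2ba* (chr11:58949504-58949533), both on the plus strand, are shown next with their poly(A) signal in capitals.
Hist1h1c: ttctAATAAAaagcgtttagttttcattca
Hist3h2ba: attAATAAAtttggttcaattttggccaca
By the length of the annotated 3′ UTR, 24 genes had an extended end (200 bases or more), 28 a short one, and 11 were annotated to end at the stop codon, a limit that was set after levels had been seen. *Hist1h2ae* with 199 bases and *Hist1h2bg* with 200 lie on either side of it. The extended genes held 76.4% of the member UMIs, the short ones 19.6% and those ending at the stop codon 4.02%. Near-identical copies make some single-gene values uncertain. *Hist1h2ap* shared all 90-base stretches of its end with *Hist1h2ao*, *Hist2h2aa1* with *Hist2h2aa2*, and the whole end of *Hist1h1e* lies within a transcript annotated to *Hist1h2be*.

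The joint table holds 3758 control, 3890 CCA and 3278 CCANT cells, which carried 95458516, 83266870 and 70825549 UMIs in the library matrices, with medians of 24235.5, 20710.5 and 20721.5 UMIs per cell. The labelled cell type was checked by clustering all cells of the libraries, and 3716 control, 3658 CCA and 2850 CCANT cells of the table lay in MG clusters. Clusters of mixed transcripts held 30, 200 and 412 cells of the table. The libraries share 8 (control and CCA), 4 (control and CCANT) and 2 (CCA and CCANT) cell barcodes. Of the control cells, 2 lay in an immune cluster led by *Igkc*, *Jchain* and *Ptprc*. These 2 cells carried 1505 to 3854 CPM of T or NK cell markers and 273 to 637 CPM of the 9 MG markers, against a median of 18880 CPM of MG markers in control cells without *Mcm* or *Mki67* UMIs. They hold a large part of the histone UMIs of proliferating control cells, so results that rest on them are given with and without them.

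Summed over the 63 genes, the level was 917 CPM (UMIs per 1000000 UMIs of all genes) in the control library, against 1417 for CCA and 1258 for CCANT. The CCA library was 1.54-fold above the control, a log2 ratio of 0.63 (0.61 to 0.64, exact 95% interval for a ratio of Poisson counts), and the CCANT library 1.37-fold above it, a log2 ratio of 0.46 (0.44 to 0.47). The CCANT library lay below the CCA library by a log2 ratio of -0.17 (-0.18 to -0.16). Counting error alone enters these intervals, and neither the spread between mice nor that between cells does. In bulk sums of this kind, more cells with the message and more message per cell cannot be told apart, which the values per cell below address.

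The families differed in how far they stood above the control. For H1, the linker histone, control and CCA stood at 114 and 266 CPM, for H2A at 152 and 339, and for H3 at 26.2 and 60.9. H4 stood at 219 and 315 CPM. H2B, the family with the most UMIs, was almost level, at 406 CPM in the control and 435 in the CCA library.

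**Figure D1:**
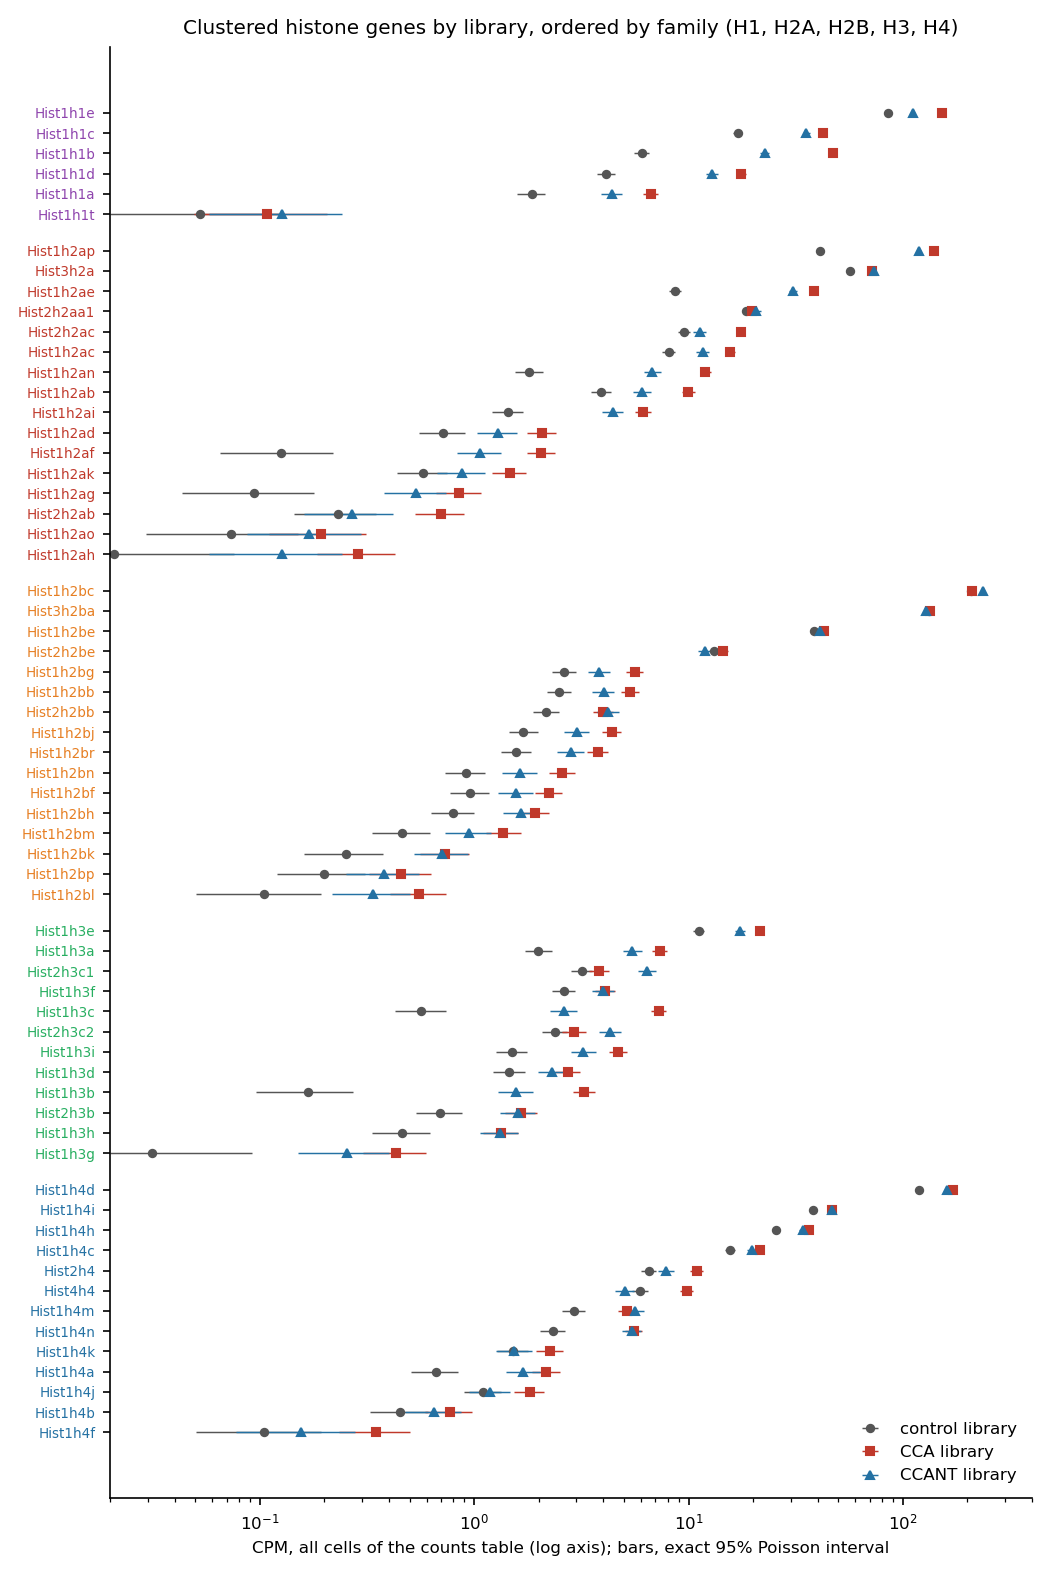
CPM of each of the 63 clustered histone genes (rows, grouped by family, with the names coloured by family) in the control (grey circles), CCA (red squares) and CCANT (blue triangles) libraries, on a log axis, with exact 95% Poisson intervals as bars. The CCA value lies to the right of the control value in every row, by little in the abundant H2B genes and by most in rare genes such as *Hist1h3b*.

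A gene was counted as higher or lower when its ratio was at least 2-fold and its interval left out 1. Between CCA and control 37 of 63 members were higher and 0 lower, beside 7.28% higher and 1.57% lower among the 21682 genes with at least 10 UMIs. The median log2 ratio was 1.26 over the members and 0.08 over those genes. Between CCANT and control 25 members were higher, beside 6.53% of all genes. Between CCANT and CCA 0 members were higher and 6 lower, beside 1.47% and 3.15% of all genes. The CCANT and CCA values share the control library, so they are given side by side and not as separate evidence. Scaling by median-of-ratios size factors lowers the log2 ratios of CCA over control by 0.08 and turns *Hist3h2ba* and *Hist1h2bc* below 0.

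The 12 members with the most UMIs fall into a near-level and a raised set. Among the near-level ones, *Hist1h2bc* stood at 208 CPM in the control, 211 in CCA and 237 in CCANT, the highest level of all members. *Hist3h2ba*, the other abundant H2B gene, stood at 132, 134 and 128 CPM. The log2 ratios of CCA over control were 0.02 (-0.01 to 0.05) and 0.03 (-0.01 to 0.06), so neither differed beyond counting error. *Hist1h2be* was also near level, with 38.6, 42.7 and 40.9 CPM. The next members stood moderately higher in both treated libraries. *Hist3h2a* had 56.7 CPM in the control, 71.9 in CCA and 73.2 in CCANT, and *Hist1h4i* had 37.96, 46.5 and 46.6 CPM. *Hist1h4d*, the most abundant H4 gene, had 119, 172 and 160.4 CPM, and *Hist1h4h* had 25.7, 36.4 and 34.0 CPM. *Hist1h1e*, the most abundant H1 gene, had 85.4, 153 and 112 CPM, with the CCANT library nearer to the control.

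The largest differences among abundant members were in H1 and H2A. *Hist1h1b* had 6.03 CPM in the control, 47.1 in CCA and 22.7 in CCANT, which gives CCA a log2 ratio of 2.96 (2.84 to 3.09) to the control. *Hist1h2ae* had 8.64, 38.5 and 30.6 CPM. *Hist1h2ap* had 41.2, 140.1 and 119 CPM, a log2 ratio of 1.77 (1.71 to 1.82), and *Hist1h1c* had 17.0, 42.2 and 35.4 CPM. Among members with at least 50 UMIs, the 8 with the largest ratio were *Hist1h3b*, *Hist1h2af*, *Hist1h3g*, *Hist1h3c*, *Hist1h2ag*, *Hist1h1b*, *Hist1h2an* and *Hist1h2bl*. Their highest log2 ratio was that of *Hist1h3b*, at 4.28 (3.55 to 5.11), from 0.168 CPM in the control to 3.25 in CCA and 1.57 in CCANT. Most control UMIs of *Hist1h3b* and *Hist1h3c* came from 2 cells with a summed level of 10000 CPM or more. Without the cells at that level in either library, 1 control UMI of each was left, and the ratios were 5.34 (2.77 to 10.7) for *Hist1h3b* and 7.31 (4.81 to 12.6) for *Hist1h3c*, in the other order. *Hist1h3c* had 0.566, 7.27 and 2.63 CPM, and *Hist1h2af* 0.126, 2.05 and 1.06 CPM. *Hist1h3g* (0.0314, 0.432 and 0.254 CPM), *Hist1h2ag* (0.0943, 0.853 and 0.536 CPM) and *Hist1h2bl* (0.105, 0.552 and 0.339 CPM) rest on few molecules. *Hist1h2an* had 1.802, 11.99 and 6.76 CPM. These 8 genes were chosen by the ratio of CCA over control, so CCA lies above the control in each by choice. The CCANT value lay between them in all 8. The 4 members with the smallest ratio were *Hist1h2bc*, *Hist3h2ba*, *Hist2h2aa1* (18.6, 19.8 and 20.7 CPM) and *Hist2h2be* (13.1, 14.5 and 11.9 CPM).

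The next comparison asks whether the level goes with proliferation. Cells were classed by any UMI of *Mcm2* to *Mcm7*, which encode the replicative helicase, and of *Mki67*, a protein of cycling cells. Neither kind was found in 2176 control, 1716 CCA and 1591 CCANT cells. *Mcm* alone was found in 1555, 1740 and 1526 cells, *Mki67* alone in 10, 157 and 62, and both in 17, 277 and 99. An *Mcm* UMI was thus common in the control, in 41.4% of cells with no *Mki67* UMI beside it, and its histone level was not raised. Cells with *Mcm* alone summed to 892 (control), 1148 (CCA) and 1118 CPM (CCANT), against 910, 1204 and 1152 in cells with neither. Cells with *Mki67* alone summed to 814, 1397 and 1022 CPM. Cells with both summed to far more, at 3605, 3834 and 4268 CPM. Their medians per cell were 913, 1056 and 1061 CPM, against 887, 1147 and 1115 in cells with neither. In the control, 79.4% of the histone UMIs of cells with both came from the 2 immune cells named above. In CCA and CCANT, 74.4% came from 25 and 9 cells.

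Pooled over all *Mki67*+ cells, the sum was 3120.1 CPM in CCA, 2.59-fold above CCA cells with neither, a log2 ratio of 1.37 (1.35 to 1.39). With cells called positive only from 2 UMIs the ratio was 2.16 (2.14 to 2.18), and with classes made at 8000 UMIs per cell it was 1.82 (1.79 to 1.84). In CCANT it was 3245 CPM, a log2 ratio of 1.49 (1.47 to 1.52). In this comparison 41 of 63 members were higher in CCA, beside 6.98% of all genes, and 40 in CCANT, beside 5.21%. In cells with *Mki67* alone the count was 12 in CCA, beside 4.6% of all genes, and in cells with *Mcm* alone it was 2, beside 0.881%. *Mki67*+ cells made up 11.2% of the CCA cells. Taken as histone UMIs per UMI of the whole library, they held 73.3% of the difference in summed level between CCA and control, and 49.1% of that between CCANT and control. This split also counts how many cells a class holds and does not measure their level alone. *Mki67*+ cells held 12.5% of all UMIs in CCA and 0.852% in control. For *Hist1h2bc* the split gives 705%, although its level was lower in *Mki67*+ than in neither CCA cells.

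An *Mki67* UMI was also found in neurons, which do not divide, in 3.71% of CCA bipolar cells (median 15690.0 UMIs per cell) and 7.59% of CCA retinal ganglion cells (median 51408 UMIs), against 11.2% of the CCA cells of the joint table (median 20710.5 UMIs). When cells were classed by the *Mki67* UMIs left after thinning to 8000 UMIs, the summed level of CCA cells was 1172 CPM with no *Mki67* UMI (3514 cells), 1283 with 1 UMI (125 cells), 3353 with 2 to 4 (53 cells), 5044 with 5 to 9 (58 cells) and 9416 with 10 or more (37 cells). The medians per cell in these classes did not follow that order, at 1108, 1235, 1002, 871 and 1101 CPM, while the number of cells at 10000 CPM or more was 0, 0, 3, 9 and 13.

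The level per cell showed that a large part of the UMIs in these pooled values came from few cells. The median over all cells also differed from the control, at 874 CPM in control (quartiles 689 and 1098), 1108 in CCA (820 and 1485) and 1100 in CCANT (833 and 1399). The summed level of a cell was at or above 10000 CPM in 25 of 3890 CCA cells, 9 of 3278 CCANT cells and 2 of 3758 control cells. The limit was set after the values had been seen, in a gap of the distribution. The highest CCA cell under it had 9407 CPM and the lowest above it 13034, and in CCANT these values were 9185 and 18277. Between 5000 and 10000 CPM lay 16 CCA, 3 CCANT and 0 control cells. These were not all *Mki67*+, as cells with neither marker reached 9263 CPM in CCA and 9185 in CCANT. CCA cells with *Mki67* alone reached 8457 CPM and those with *Mcm* alone 7268. The markers shared by the cells above the limit thus depend on where it was set. The 25 CCA cells are 0.643% of the cells, hold 1.14% of all UMIs and 17.8% of the UMIs of the clustered histone genes. The 9 CCANT cells hold 10.1% of them. All 36 cells carried *Mcm* and *Mki67* UMIs, and the 25 and 9 cells of the treated libraries lay in a cycling MG cluster, while the 2 control cells are the immune cells named above.

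**Figure D2:**
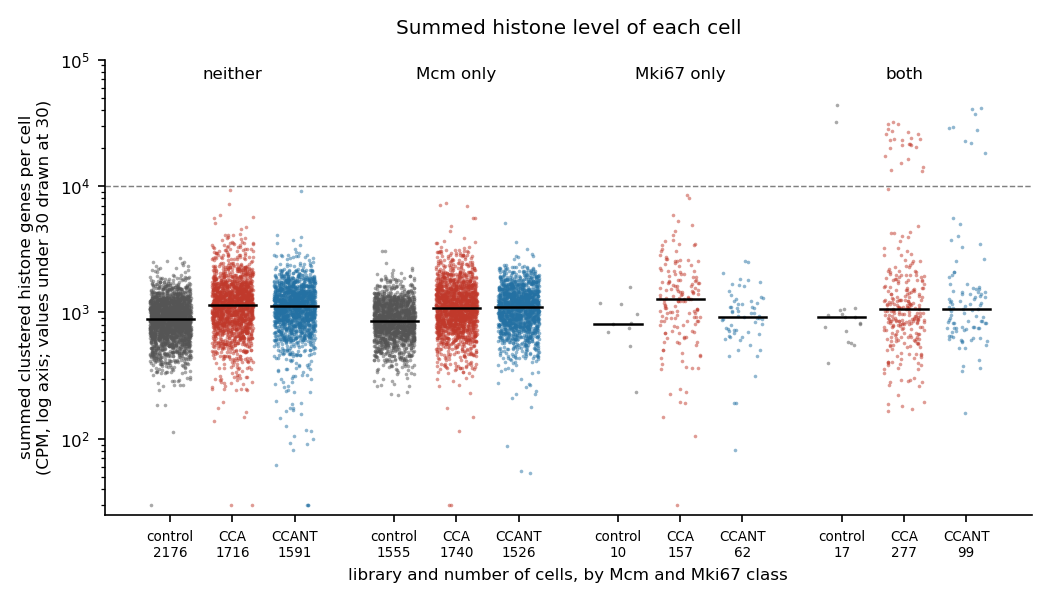
Summed CPM of the clustered histone genes in each cell (points, log axis) of the control, CCA and CCANT libraries, by whether the cell had a UMI of *Mcm2* to *Mcm7*, of *Mki67*, of both or of neither, with the number of cells under each column and the median as a bar. Above the dashed line at 10000 CPM lie 2 control, 25 CCA and 9 CCANT cells, all in the class with both, and the medians of all columns lie between 817 and 1287 CPM (values under 30 are drawn at 30).

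Cells with at least 1 *Mcm* and 1 *Mki67* UMI differed widely in their histone level. Among CCA cells with both *Mcm* and *Mki67* UMIs, 25 of 277 were at 10000 CPM or more, which is 9.03% (5.93 to 13.0%, exact Clopper-Pearson interval, counting error only). In CCANT it was 9 of 99, or 9.09% (4.24 to 16.6%). The median cell with both had 1056 CPM in CCA and 1061 in CCANT, slightly below the medians of 1147 and 1115 in cells with neither. The cells at 10000 CPM or more were chosen by the summed level itself and were all *Mki67*+, so values without them describe the remaining cells and are no test. Without them, *Mki67*+ CCA cells summed to 1213 CPM against 1204 in cells with neither, a log2 ratio of 0.01 (-0.02 to 0.04), and in CCANT the ratio was 0.00 (-0.04 to 0.05). The 15 control cells with both that were left had a median of 826 CPM, against 887 in control cells with neither. The number of members higher in *Mki67*+ than in neither CCA cells was then 14, beside 6.4% of all genes.

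Cells were also classed by other cell cycle genes. S and G2/M lists of 22 genes each, without the *Mcm* genes and *Mki67*, were counted after thinning every cell to 8000 UMIs. Cells below that depth took no phase class (36 in control, 103 in CCA, 53 in CCANT). Cells were called raised from 8 UMIs of the S list or 4 of the G2/M list, limits set after the distributions of the lists had been seen. In CCA 64 cells lay at the S limit or 1 UMI below it, and 98 at the G2/M limit. Raised in both lists were 93 CCA and 33 CCANT cells, in the S list alone 119 and 46, and in the G2/M list alone 137 and 36. CCA cells raised in both lists summed to 8068 CPM, against 1183 in cells low in both. Cells raised in the S list alone summed to 897 CPM, below the low cells by a log2 ratio of -0.40 (-0.46 to -0.34), and those raised in the G2/M list alone to 1418 CPM. The same order was found in CCANT, at 10199, 1133, 891 and 1298 CPM. All 25 CCA and all 9 CCANT cells at 10000 CPM or more were raised in both lists, and they made up 26.9% (18.2 to 37.1%) and 27.3% (13.3 to 45.5%) of that class. They also held 92.6% of the member UMIs of the 93 CCA cells and 89.4% of those of the 33 CCANT cells, so the sums of 8068 and 10199 CPM describe mainly the cells chosen by the level itself. The median was 974 CPM over the 93 cells, 1123 over the cells low in both lists, 855 with the S list alone and 1076 with the G2/M list alone, so in CCA the median cell raised in both lists was not above the median low cell. In CCANT the median was 1325 CPM with both lists raised and 1102 with both low.

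The histone-high cells were described by genes that the limit did not use. In the 25 CCA cells the S list had a median of 4392 CPM (1907 to 5912), against 464 in the other cells with both *Mcm* and *Mki67* UMIs and 218 in cells with neither. The G2/M list had a median of 7103 CPM, against 439 and 44.4. *Slbp* had a median of 334 CPM, against 39.7 and 0. Each of the 25 cells had *Slbp* UMIs, the lowest at 91.9 CPM. Replication-independent histone variants summed to a median of 12725 CPM, against 4195 and 2999, and histone chaperones to 1739, against 782 and 509. The MG markers had a median of 6080.5 CPM (3778 to 10998), against 13238 and 18377, and T or NK markers were at 0 in all 25 cells. Their median depth was 38915 UMIs, against 24051 and 19608.5, and the part of depth in the result was not tested. In the 9 CCANT cells the S list (5126 CPM), the G2/M list (6296) and the MG markers (6110.5) had medians on the same scale.

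The members did not share these cells evenly. Of the *Hist1h2ap* UMIs of the CCA library 66.0% came from the 25 cells, in which it made up 8086 CPM, against 48.2 CPM in the remaining cells. The share was 65.0% for *Hist1h2ae*, 64.6% for *Hist1h1b*, 77.4% for *Hist1h3c* and 87.1% for *Hist1h3b*. In contrast it was 0.809% for *Hist1h2bc*, 0.992% for *Hist3h2ba* and 0.418% for *Hist3h2a*, less than or close to the 1.14% of all UMIs that these cells hold. Between these ends lay *Hist1h4d* with 7.60%, *Hist1h1c* with 8.90% and *Hist1h1e* with 11.8%. In all, 12 members had at least 50% of their CCA UMIs in the 25 cells, 9 of them H2A genes. The levels that define these cells are the ones described here, so they are not a test.

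In the control library the 2 immune cells held 16.6% of the *Hist1h2ap*, 18.1% of the *Hist1h2ae* and 26.9% of the *Hist1h1b* UMIs, but nearly all those of a pair of H3 genes. They held 53 of the 54 *Hist1h3c* UMIs and 15 of the 16 *Hist1h3b* UMIs of that library. Without them the control level of *Hist1h3c* was 0.0105 CPM, and those of *Hist1h2ap* and *Hist1h1b* were 34.3 and 4.41 CPM. The pooled ratio of 1.99 (1.92 to 2.05) on the log2 scale between control cells with both and with neither rests on these 2 cells. Without them the cells with both summed to 806 CPM, against 910 in cells with neither.

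**Figure D3:**
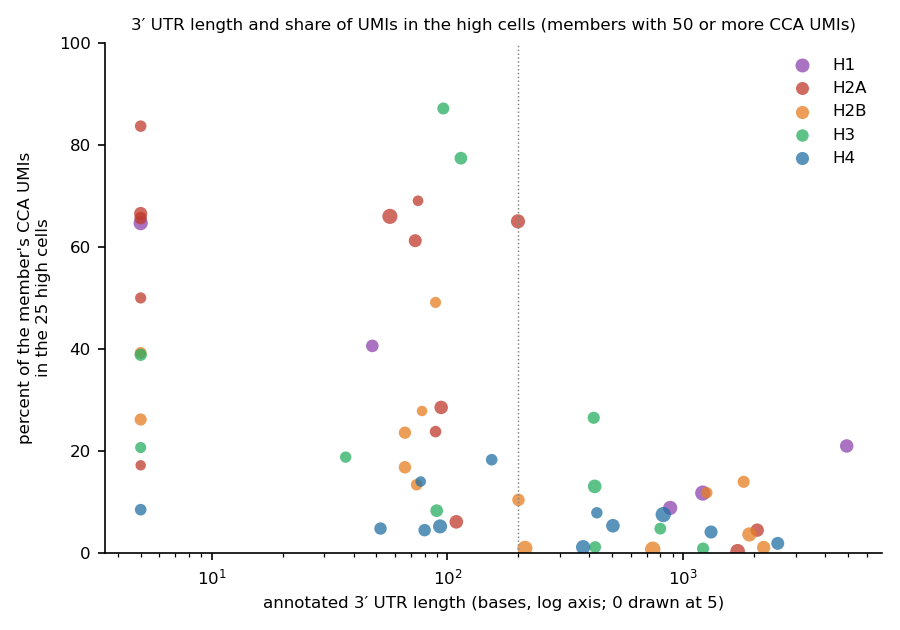
Share of each member's CCA UMIs that came from the 25 cells at 10000 CPM or more (vertical axis, percent) against the length of its annotated 3′ UTR (log axis in bases, with 0 drawn at 5), for the 56 members with at least 50 CCA UMIs, coloured by family, with larger points for more UMIs and a dotted line at 200 bases. Members to the right of the line reach at most 26.5% and members to the left 87.1%, but *Hist1h2ae* with 65.0% lies 1 base to the left.

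Read against the transcript ends, members with short or no annotated 3′ UTR carried most of the UMIs of the histone-high cells. Extended members had 5.17% of their CCA UMIs in the 25 cells, short ones 46.9% and those annotated to end at the stop codon 57.8%. In CCANT the shares were 2.23%, 32.9% and 41.2%. The median log2 ratio of *Mki67*+ over neither cells in CCA was 0.28 over the extended members (-0.58 to 2.40), 2.48 over the short ones (0.16 to 9.06) and 2.62 over those ending at the stop codon (1.40 to 4.51). Of the 24 extended members 7 were higher, of the 28 short ones 23 and of the 11 others 11, beside 6.98% of all genes, of whatever transcript end. These ratios include the 25 cells. Without them the medians were -0.02, 0.72 and 0.85, and 3, 6 and 5 members were higher, beside 6.4% of all genes. The stem-loop letters were found in 21 of the extended and 24 of the short members, so they do not separate the extended from the short. The 11 others had no 3′ UTR to search. A poly(A) signal was found in the last 50 bases of 12 extended and 4 short members. The limit was set after levels had been seen, and with 199 bases in its place *Hist1h2ae* joins the extended members, whose share in the 25 cells is then 7.37% with a highest single share of 65.0%. The length follows the annotation, and where the molecules ended was not measured. The end classes also differed in shared sequence. Most short members shared part of their end with another gene, while most extended members shared none. The part of such sharing in the values by end class was not tested.

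With the histone-high cells left out, which again is a choice by the summed level, the libraries differed by less. The remaining cells summed to 901 (control), 1179 (CCA) and 1136 CPM (CCANT), log2 ratios over control of 0.39 (0.37 to 0.40) and 0.33 (0.32 to 0.35). Of the 63 members 26 were higher in CCA, beside 7.16% of all genes, and 18 in CCANT, beside 6.44%. In cells with no *Mcm* and no *Mki67* UMI, 15 members were higher in CCA, beside 4.7% of all genes, and 14 in CCANT, beside 4.85%.

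**Figure D4:**
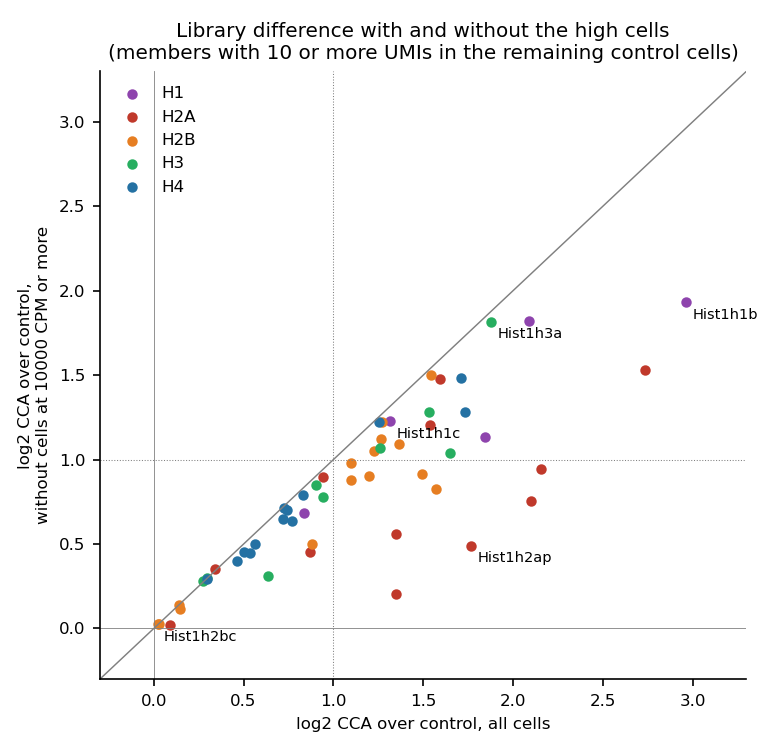
Log2 ratio of CCA over control for the 54 members with at least 10 UMIs in the remaining control cells, over all cells (horizontal axis) and without the cells at 10000 CPM or more (vertical axis), coloured by family, with the line of equal values and dotted lines at a 2-fold ratio. *Hist1h2ap* drops from 1.77 to 0.49, *Hist1h1c* stays close to the line, and 48 of the 54 points lie below it.

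Single members split by this measure. *Hist1h2ap* went from a log2 ratio of 1.77 to 0.49 (0.42 to 0.56), with 34.3 (control), 48.2 (CCA) and 59.9 CPM (CCANT) among the remaining cells. *Hist1h2ae* went from 2.15 to 0.94 (0.81 to 1.08). The 6 H1 genes had ratios from 0.68 to 1.93 in the remaining cells. *Hist1h1b* fell from 2.96 and was at 4.41, 16.8 and 10.9 CPM in the remaining cells, a CCA ratio of 1.93 (1.77 to 2.09), *Hist1h1d* at 3.97, 14.01 and 11.3 CPM, and *Hist1h1c* at 16.6, 38.9 and 34.1 CPM, a ratio of 1.23 (1.14 to 1.31). *Hist1h1e*, the most abundant, was at 84.8 (control) and 136 CPM (CCA), a ratio of 0.68 (0.64 to 0.72), under 2-fold. *Hist1h1a* had a ratio of 1.13 (0.86 to 1.41), and *Hist1h1t*, with 8 CCA UMIs, one of 0.89 (-0.90 to 2.85) that held 0. The H3 gene *Hist1h3a* was at 1.93, 6.79 and 5.16 CPM, a ratio of 1.82 (1.57 to 2.06). In cells with neither marker *Hist1h1c* stood at 17.2 (control), 39.4 (CCA) and 34.3 CPM (CCANT), and *Hist1h3a* at 2.03, 6.14 and 4.49 CPM, and so both differed also among cells without *Mcm* or *Mki67* UMIs. *Hist1h1c* also stood higher in classes outside MG, given with the cell classes below. Among the remaining cells *Hist1h1b* stood at 45.4 CPM in *Mki67*+ and 12.8 in neither CCA cells.

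The 8 members with the largest ratio of *Mki67*+ over neither CCA cells were rare H3 and H2A genes and *Hist1h1b*. *Hist1h2af* stood at 15.7 CPM in *Mki67*+ and 0.0294 in neither cells, *Hist1h3c* at 55.9 and 0.411 CPM, *Hist1h3b* at 25.1 and 0.147 CPM, and *Hist1h3g* at 3.18 and 0.0294 CPM. The 0.0294 CPM is 1 UMI, so those ratios have wide intervals, from 6.56 to 14.4 on the log2 scale for *Hist1h2af*. The others were *Hist1h2ag* (5.205 and 0.206 CPM), *Hist1h2an* (72.4 and 3.17 CPM), *Hist1h1b* (286 and 12.8 CPM) and *Hist1h2ai* (35.9 and 1.76 CPM). Without the histone-high cells *Hist1h3c* was still at 11.9 CPM in *Mki67*+ cells, a log2 ratio of 4.85 (4.05 to 5.77), and *Hist1h3b* at 2.55 CPM. Of the 16 H2B genes, the most abundant were not higher. *Hist1h2bc* was at 182 CPM in *Mki67*+ and 223 in neither CCA cells, and *Hist3h2ba* at 109 and 145 CPM, log2 ratios of -0.29 (-0.36 to -0.22) and -0.41 (-0.51 to -0.32). *Hist1h2be* was level at 46.2 and 43.0 CPM, a ratio of 0.10 (-0.05 to 0.25), and *Hist2h2be* had a ratio of -0.58 (-0.89 to -0.29). The other 12 H2B genes, all with fewer UMIs, were among the 41 members called higher, with ratios from 1.33 to 3.20.

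Beside the control, the sexes of the CCANT library could be set apart. CCANT cells with Y-linked and without *Xist* UMIs summed to 1292 CPM, a log2 ratio of 0.49 (0.47 to 0.51) over the control library, whose cells were nearly all Y-positive. CCANT cells with *Xist* and no Y-linked UMI summed to 1240 CPM, lower than the first by a log2 ratio of -0.06 (-0.08 to -0.04). They stood lower than the CCA library by -0.19 (-0.21 to -0.18). The Y-linked set held 998 and the *Xist* set 1505 of the 3278 CCANT cells. The 756 cells with both kinds of UMI and 19 others were in neither set. Cells at 10000 CPM or more were kept, which hold 10.1% of the CCANT and 17.8% of the CCA histone UMIs. Their part in the ratios between the sets and to the CCA library was not tested.

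Histone genes outside the clusters and the proteins that handle histones were read from 3 lists. Of 11 replication-independent variants, which are mostly made outside S phase too (*H2afx* is known to give a stem-loop message as well as a polyadenylated one), 3 were at least 2-fold higher in CCA than in control (*H2afx*, *H1fx* and *Cenpa*, the centromeric H3) and 0 lower, beside 7.28% and 1.57% of all genes, with a median log2 ratio of 0.82. The 3 most abundant of the list were *H3f3b* with 788 (control), 1404 (CCA) and 1304 CPM (CCANT), *H3f3a* with 759, 871 and 889.5 CPM, and *H2afz* with 192, 339 and 257 CPM. In CCA cells, 5 variants were higher in *Mki67*+ than in neither cells, namely *H2afz*, *H2afx*, *H2afv*, *H1fx* and *Cenpa*, beside 6.98% of all genes. *H2afz* went from 204 to 1186 CPM.

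Of 10 genes of histone message regulation 0 were at least 2-fold higher in CCA than in control, beside 7.28% of all genes. Here *Npat*, which activates the clusters in S phase, had 34.6, 32.1 and 32.1 CPM in control, CCA and CCANT, and *Cpsf3*, which cuts the message after the stem-loop, 31.5, 32.3 and 31.7 CPM. In *Mki67*+ CCA cells 3 were higher, *Slbp* with 96.4 against 30.2 CPM, *Zfp473*, a partner of the processing complex, and *Eri1*, an exonuclease of histone message ends, beside 6.98% of all genes. Of 12 histone chaperones, which carry new histones to DNA, 4 were higher in CCA than in control (*Chaf1a*, *Chaf1b*, *Asf1b* and *Hirip3*) and 6 in *Mki67*+ than in neither cells, the same 4 with *Nasp* and *Hat1*, beside 7.28% and 6.98% of all genes. The most abundant chaperones were near level, *Atrx* with 267, 230.4 and 238 CPM, *Supt16* with 91.0, 95.8 and 89.0 CPM and *Hira* with 45.9, 47.1 and 46.9 CPM. *Slbp* and *Chaf1b* are also in the S list and *Cenpa* in the G2/M list.

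Neurons were read from all cells of the library matrices, where clusters were named from fixed markers by a rule set after the clusters had been seen. One cluster with raised rod markers had none among its 10 leading genes and a median of 5023 UMIs per cell. It took no cell type name and is called the rod-marker cluster. Neurons do not divide, and *Mki67* stood at 0 to 0.746 CPM in the control and at 0.723 to 4.76 CPM in the CCA neuron classes, against 98.96 CPM in CCA MG. Free RNA from other cells can give such values, and its part in the neuron levels was not tested.

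The summed histone level of the neuron classes and the rod-marker cluster ranged from below to slightly above that of MG. In the control it was 973 CPM in the rod-marker cluster, 949 in cones, 873 in bipolar cells, 545 in amacrine cells, 538 in horizontal cells and 370 in retinal ganglion cells, against 917 in MG without *Mcm* and *Mki67* UMIs. The rod-marker cluster and cones did not differ beyond counting error, nor did amacrine and horizontal cells, whose intervals overlap. Microglia or macrophages stood at 480.5 CPM.

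**Figure D5:**
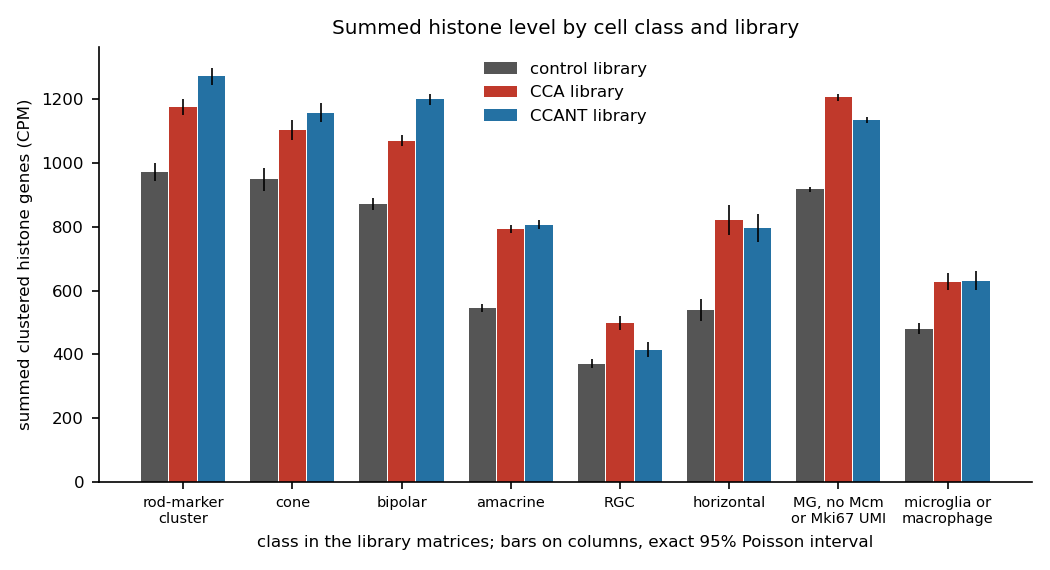
Summed CPM of the clustered histone genes by cell class (columns) in the control, CCA and CCANT libraries, with exact 95% Poisson intervals. The rod-marker cluster, the 5 neuron classes, MG without *Mcm* or *Mki67* UMIs and microglia stand higher in the CCA than in the control library, astrocytes, endothelial cells and pericytes are not drawn, and the level is lowest in retinal ganglion cells (RGC).

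The rod-marker cluster and each of the 5 neuron classes stood higher in the CCA than in the control library. The log2 ratio was 0.27 (0.22 to 0.33) in the rod-marker cluster, 0.22 (0.15 to 0.29) in cones, 0.29 (0.26 to 0.33) in bipolar cells, 0.54 (0.50 to 0.58) in amacrine cells, 0.43 (0.35 to 0.51) in retinal ganglion cells and 0.61 (0.48 to 0.73) in horizontal cells. The ratio in MG with neither marker was 0.40 (0.38 to 0.41), within the range of the neurons, and in microglia or macrophages it was 0.38 (0.30 to 0.47). Not every class differed. The ratio was 0.06 (-0.08 to 0.21) in astrocytes (15 control and 33 CCA cells) and -0.08 (-0.29 to 0.14) in endothelial cells (25 and 47 cells), both within counting error, and 0.42 (0.25 to 0.59) in pericytes (55 and 98 cells). The number of members at least 2-fold higher was 2 in the rod-marker cluster beside 0.987% of all genes, 1 in cones beside 0.793% (and 1 lower, beside 2.01%), 1 in bipolar cells beside 1.6%, 11 in amacrine cells beside 2.4%, 3 in retinal ganglion cells beside 1.09% and 3 in horizontal cells beside 2.02%. In MG with neither marker 20 members were, beside 4.83%. In endothelial cells 1 member was higher beside 1.51% (and 1 lower, beside 3.38%), and in pericytes 2 were higher beside 2.85%. In astrocytes 0 were higher beside 1.88% (and 1 lower, beside 3.42%). *Hist1h1c* was among those called higher in endothelial cells, at a log2 ratio of 1.23 (0.41 to 2.15), and in pericytes, at 1.09 (0.34 to 1.92). Its ratio was 0.43 (-0.04 to 0.90) in astrocytes and 0.41 (0.17 to 0.65) in bipolar cells.

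Single members, named after their values were seen, had unlike levels in the cell classes. In the control *Hist1h2be* stood at 197 CPM in the rod-marker cluster and 37.8 in MG with neither marker, *Hist1h1c* at 115 and 17.5 CPM, *Hist1h4c* at 47.7 and 14.8 CPM, and *Hist2h3c1* at 14.4 and 3.09 CPM. *Hist3h2ba*, in turn, was low in the rod-marker cluster, at 25.2 CPM, and high in bipolar cells at 211 CPM. *Hist3h2a* was highest in cones at 153 CPM. *Hist1h2bc* had 25.5 CPM in retinal ganglion cells, 214 in MG, 237 in the rod-marker cluster and 376 in astrocytes, of which the control held 15 cells. Of the 63 members 8 were at least 2-fold higher and 11 lower in the rod-marker cluster than in MG with neither marker, beside 18.0% and 20.7% of all genes. In cones 5 were higher (13.6% of all genes) and 6 lower (14.8%), and in bipolar cells 2 were higher (15.8%) and 13 lower (18.7%). In retinal ganglion cells 2 were higher (19.3%) and 25 lower (18.1%), in amacrine cells 2 were higher (20.2%) and 18 lower (16.7%), and in horizontal cells 0 were higher (10.4%) and 15 lower (16.5%). Members were thus lower rather than higher in these last classes of the control. In the CCA library this held in other classes too. Cones had 1 higher (13.6%) and 24 lower (17.9%), bipolar cells 0 higher (15.1%) and 26 lower (19.9%), and the rod-marker cluster 6 higher (16.8%) and 23 lower (23.1%). *Hist1h3c* was at 0 UMIs in the 5 neuron classes and the rod-marker cluster of the control, as was *Hist1h1b* in the rod-marker cluster.

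Microglia or macrophages gave another set of cycling cells, with 86 *Mki67*+ cells over the 3 libraries and 166 with neither marker. Their summed level was 1244 against 374 CPM, a log2 ratio of 1.74 (1.64 to 1.83), and it was 1.73, 2.43 and 1.04 in the control, CCA and CCANT libraries. The median *Mki67*+ cell was closer to the median cell with neither marker, at 254 and 246 CPM in the control, 531 and 243 in CCA, and 477 and 430.4 in CCANT. As in MG, H2A (2.80) and H3 (2.93) differed most and H2B (0.30) least. *Hist1h2ap* stood at 332 against 24.9 CPM, *Hist1h1b* at 126 against 2.46 CPM, and *Hist1h2bc* was level at 50.3 and 52.7 CPM. Without the 2 cells at 10000 CPM or more, the summed level was 909 against 374 CPM, a log2 ratio of 1.28 (1.18 to 1.39), and *Hist1h3c* stood at 30.2 against 0.616 CPM.

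The cycling MG cluster of the library matrices held more cells than the joint table, 542 in CCA against 261 and 175 in CCANT against 72. Of all its cells 70 in CCA and 21 in CCANT were at 10000 CPM or more, against 25 and 9 of those in the table. In all MG of the library matrices the summed level was 1697 CPM in CCA, 910 in the control and 1288 in CCANT, the CCANT value lying between the others.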

How the data were processed

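Per the labels, tdTomato+ cells of 1 library per group were sequenced with 10x Genomics 3′ chemistry. The authors ran Cell Ranger 6.1.1 on mm10 with tdTomato and GFP added, counting intronic reads too, and deposited raw UMI counts, as 1 matrix per library and as a joint counts table of the cells that passed their filters. A median of 93.1% of a control cell's library UMIs is present there (99.9% in CCA and CCANT), so the UMIs of its 10926 cells were taken from the library matrices. The fold changes in the paper's supplement were not used.

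UMIs were summed over the cells of a class and given as CPM. Ratios carry exact conditional 95% intervals for 2 Poisson counts, and shares carry Clopper-Pearson intervals. Both cover counting error only, and no p-value was computed since cells are not replicates. A count of 0 was read against a limit of 3 counts. The ratio and its interval were tested on simulated Poisson counts, the model that the interval assumes, which hold no spread between cells or mice. For cell classes, library barcodes were kept from 2000 features, up to 100000 UMIs and up to a mitochondrial share of 15%, and clustered (scanpy 1.11.5, leidenalg 0.10.2, 2000 variable genes, 20 components, 20 neighbours, resolution 0.5). A cluster passed a class from a median marker log2 level, relative to all clusters, of at least 1.5 with at least 3 markers raised. It was named only if a marker of that class was also among its 10 leading genes (not required for MG) and no other class had more there, which left 5 clusters that passed bipolar or amacrine markers alone unnamed. The authors removed doublets from the joint table, and no doublet filter was applied to the library barcodes behind the neuron, microglia, rod-marker cluster and all-MG values. Clusters that passed MG or rod markers and another class were called mixed and left out. Clusters that passed 2 other classes were kept under the class of their leading genes, among the neurons 1 amacrine cluster that also passed cone markers (400 of 623 control amacrine cells) and the retinal ganglion and horizontal clusters, which passed each other's markers. Sequences come from GENCODE vM21 transcripts of the same build.

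The members and lists were chosen with earlier results of these data known. Members named singly are the 12 with the most UMIs, the 8 largest and 4 smallest ratios of CCA over control, the 8 largest ratios of *Mki67*+ over neither CCA cells (each with at least 50 UMIs), and the 3 most abundant genes of each list, and others were named after their values were seen. Alternatives covered the scaling, the source of counts, the classes, the fold limit and the sets of cells and members.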

Additional observations from a re-analysis of the deposited data

How the results depend on the processing

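No paired analysis was possible because each group is 1 library and no test was made, and for the same reason no replicate could be left out. The log2 ratio of the summed level of CCA over control, 0.63, became 0.55 with median-of-ratios scaling, 0.66 in MG clusters alone, 0.56 as a mean over cells, 0.46 without members that share 50% or more of their transcript ends and 0.39 without cells at 10000 CPM or more. Under the same settings that of CCANT over control, 0.46, became 0.42, 0.50, 0.40, 0.35 and 0.33, and 0.49 with only the Y-positive CCANT cells. In cells with neither marker, the CCA ratio of 0.40 became 0.35 with median-of-ratios scaling and 0.35 without members with shared ends. The ratio of *Mki67*+ over neither CCA cells, 1.37, became 1.31 with median-of-ratios scaling, 1.42 in MG clusters, 2.16 with positive cells from 2 UMIs, 1.82 with classes at 8000 UMIs per cell, 1.52 with classes by the S and G2/M lists, 0.85 without members with shared ends and 0.011 without cells at 10000 CPM or more. The 37 of 63 members higher in CCA than in control (7.28% of all genes) became 18 of 38 without members with shared ends. The 41 of 63 higher in *Mki67*+ cells (6.98% of all genes) became 20 of 38 in that setting and 14 of 63 without cells at 10000 CPM or more (6.4% of all genes). The settings on shared ends and on cells at 10000 CPM were chosen after seeing the data, as were the limit of 10000 CPM (first set at 5000), the list limits and the 3′ UTR limit. No direction was reversed among these results and settings, but the ratio of 0.011 (-0.019 to 0.041) held 0, so no direction was left there. Ratios of members with few UMIs in a class have wide intervals.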
